A study of Mus musculus with 2 samples.

Results

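The STAT transcription factor genes Stat2, Stat3, Stat4, Stat5a, Stat5b and Stat6 and the feedback inhibitor genes Socs1, Socs3 and Cish were examined in cultured mouse mammary basal cells with and without TNF-α. These 9 genes were taken by name from the 49492 genes of the deposited count table, and all 9 were found there. The other Socs genes were not among them and are described below as part of the wider pathway. Basal cells (lin-CD24+CD29hi) were sorted from the mammary glands of adult wild-type female mice and grown in 3D matrix gel for 10 days, in medium with EGF and insulin, transferrin and selenium in both groups. The TNF-α group also received recombinant mouse TNF-α at 10 ng/mL, while the control group received no treatment. Each group was 1 library, so no difference has a replicate check. How many animals or wells went into each was not given in the sources used here.

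Cytokine receptors without kinase activity of their own carry Janus kinases (JAKs), which phosphorylate STAT proteins once a ligand binds. Phosphorylated STATs form dimers, enter the nucleus and switch on target genes, among them the genes of the SOCS family, whose products block the receptor or the kinase and so close a negative feedback loop. In the mammary gland, STAT5 carries the prolactin signal for milk production, STAT6 the signal of IL-4 and IL-13, and STAT3 the signal of LIF when the gland involutes after weaning. The counts measure transcripts and say nothing of phosphorylation, which is how STAT proteins are activated.

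The control library held 44462275 counts and the TNF-α library 53487087. The labelled cell type was checked first. All 15 basal markers were detected, led by Krt14 with 229766 control and 259922 TNF-α counts, and their summed level was 13465 CPM in the control and 12728 CPM with TNF-α (CPM, the count scaled to library size by the TMM method). By the calls defined below, Oxtr (log2 ratio -1.19) and Lgr5 (-1.20) were lower with TNF-α and no basal marker was higher, with a list median of 0.03. The 15 luminal markers were also detected, with Krt8 at 54056 and 60420 counts, so the cultures held luminal transcripts in both groups. For untreated colonies grown from sorted basal cells in a related experiment, the paper reports by flow cytometry that most cells were luminal. The cultures are therefore named for the cells that were seeded, and their makeup at harvest was not measured here. Of the 15 T and NK cell markers, 7 had 0 counts in both libraries, among them Cd3e, Cd3d, Cd3g and Cd8a. The 9 fibroblast markers had a median log2 ratio of 0.07, with Dcn (1.39) and Fbln1 (1.52) called higher and Col6a3 lower, and summed to 1528 CPM in the control and 863 CPM with TNF-α, of which Col6a3 alone made up 1010 and 362 CPM. The myeloid and B cell markers summed to 9.13 and 7.07 CPM, and the endothelial markers to 8.55 and 7.74 CPM.

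Short stretches before the gene start are shown for the 4 genes whose promoter held one of the STAT or interferon response motifs searched, since these are the elements through which STATs and interferon regulate genes. The 250 bases before each RefSeq start of GRCm38.p6 were searched on both strands for the STAT motif TTCNNNGAA, the longer form TTCNNNNGAA favoured by STAT6, the core of the interferon-stimulated response element GAAANNGAA, and the NF-κB motif. All 9 genes were matched, with 12 starts. Capitals mark the matches, and each sequence runs 5′ to 3′ on the strand of its gene. None of these stretches overlaps an exon of the gene in the count table. Those of Socs3 and Stat4 lie before a RefSeq start but within the span that the count table gives the gene.
Stat2 (chr10:128270248-128270327, plus strand): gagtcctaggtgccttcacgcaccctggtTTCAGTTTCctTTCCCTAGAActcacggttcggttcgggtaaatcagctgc
Socs1 (chr16:10785577-10785646, minus strand): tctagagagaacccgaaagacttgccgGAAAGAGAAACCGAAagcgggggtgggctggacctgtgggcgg
Socs3 (chr11:117969502-117969530, minus strand): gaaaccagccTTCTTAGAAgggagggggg
Stat4 (chr1:52008133-52008161, plus strand, at the second of 2 starts): aatgtcttcaGAAAGTGAAatttagaacg

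The STAT motif was found before Socs3, at positions -154 to -146 from its RefSeq start, and before none of the other members. The STAT6 form was found before Stat2, next to a match of the interferon core on the opposite strand. The interferon core also occurred before Socs1, in 2 overlapping copies, and before Stat4. Among all 32851 promoters, 7.02% held the STAT motif, 5.85% the STAT6 form, 7.13% the interferon core and 3.90% the NF-κB motif, which among the members was found before Stat5a only. These matches are letters in a window and not measured binding sites.

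Levels of different genes were compared as CPM per kb of exon, within a library. In the control library Stat6 was highest at 40.6, followed by Stat3 at 32.9, Socs3 at 30.7, Stat5a at 17.2, Stat5b at 14.0 and Stat2 at 3.15. Cish (0.350), Socs1 (0.257) and Stat4 (0.174) were the lowest, and each of these 3 had a 95% Poisson interval for counting error that overlapped that of its neighbour in the order. With TNF-α, Stat3 came first at 48.1 and Stat6 second at 37.8, Socs3 was at 19.4, and Stat5b at 8.70 lay above Stat5a at 7.73. By this measure, Stat3 and Stat6 exchanged order, as did Stat5a and Stat5b, among the 6 most abundant members. Both exchanges depend on dividing by the summed exon length. In CPM, Stat3 was above Stat6 already in the control (313 and 179). With TNF-α, Stat5a stayed above Stat5b in CPM (55.1 and 48.2).

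**Figure D1:**
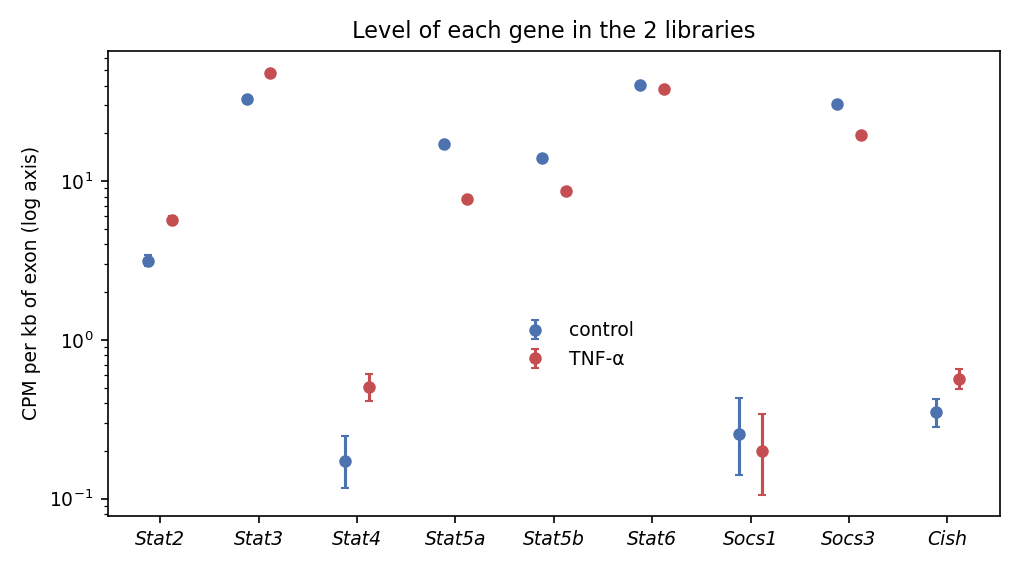
Level of each of the 9 genes in CPM per kb of exon (log axis) in the control and TNF-α libraries, with 95% Poisson intervals for counting error. Stat5a stood at 17.2 in the control and 7.73 with TNF-α, and Stat3 at 32.9 and 48.1, while Socs1, Stat4 and Cish lay at or below 0.569 in both libraries.

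The 6 STAT genes summed to 108 CPM per kb in the control and 109 with TNF-α, so their makeup differed while their sum was close. Stat3 held 30.4% of this sum in the control and 44.3% with TNF-α. Stat5a held 15.9% and 7.12%, and Stat5b 13.0% and 8.01%. Stat6 held 37.6% and 34.8%. Like the order, these shares depend on the exon length used. In levels per kb, Stat3 was 1.91 times Stat5a in the control and 6.23 times with TNF-α.

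**Figure D2:**
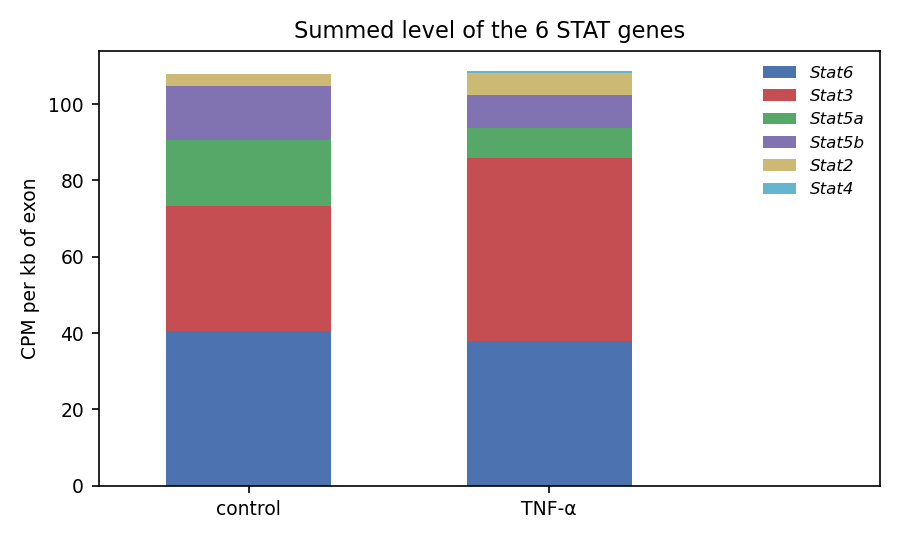
Stacked levels of the 6 STAT genes in CPM per kb of exon in the control and TNF-α libraries, starting at 0. The stacks reach 108 and 109, with Stat3 taking 30.4% of the control stack and 44.3% of the TNF-α stack.

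The difference of each gene was measured as a log2 ratio, TNF-α over control, from CPM with a prior count of 2. Calls of higher or lower needed both a 2-fold ratio and a two-sided exact binomial test of the reads, with Benjamini-Hochberg adjustment over the 20771 genes with at least 10 counts summed. This test compares 2 libraries, not the treatments. Of the 9 members, 1 was called higher (Stat4) and 1 lower (Stat5a), where 6.89% of all genes were called higher and 5.53% lower. With edgeR's exact test and a spread between cultures assumed in place of replicates, Stat5a was no longer called at a coefficient of variation of 0.2, and neither gene was called at 0.4. With 1.5-fold as the threshold, 3 members were called higher (Stat2, Stat4 and Cish) against 11.3% of all genes, and 3 were called lower (Stat5a, Stat5b and Socs3) against 9.57%. The median log2 ratio of the 9 genes was -0.10, beside 0.0038 for all genes, and it was 0.22 without Socs1, whose counts were few. The members therefore lay on both sides of the middle of the distribution, and their spread describes them better than their median.

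**Figure D3:**
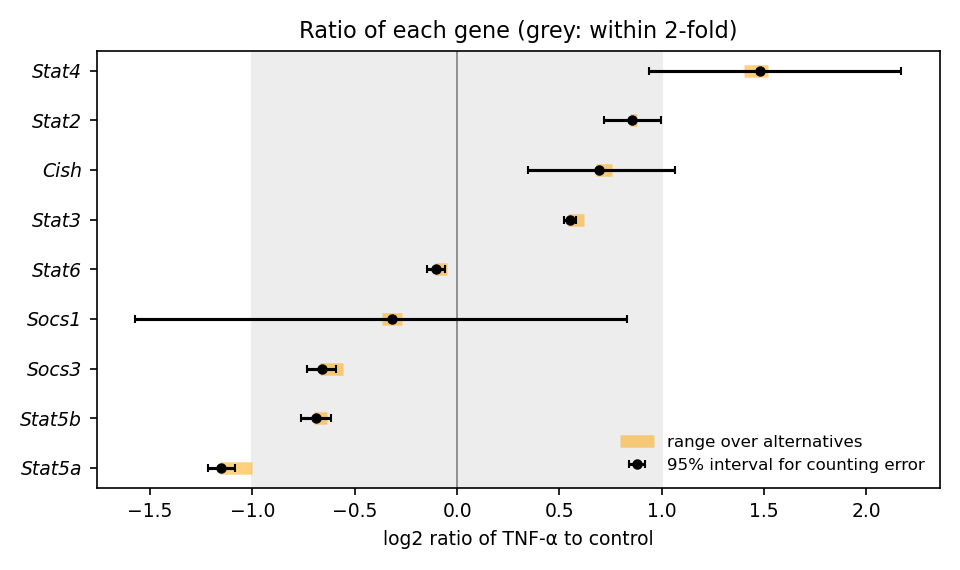
Log2 ratio, TNF-α over control, for each gene (points), with 95% intervals for counting error (bars) and the range over 7 alternatives of scaling, prior count, halved counts and GC correction (orange). Stat4 at 1.48 and Stat5a at -1.15 lie outside the grey 2-fold band, and the interval of Socs1, from -1.57 to 0.83, is the one that spans 0.

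Stat5a and Stat5b encode the closely related STATs that act downstream of the prolactin and growth hormone receptors. Stat5a (chromosome 11 of GRCm38, 100859351 to 100885169, plus strand) had 5462 counts in the control and 2942 with TNF-α. It was 2.22-fold lower with TNF-α, a log2 ratio of -1.15 (95% interval for counting error -1.22 to -1.09), and 5.34% of the 20771 genes had a lower ratio. Stat5b (chromosome 11, 100780731 to 100850724, minus strand) had 3463 counts in the control and 2570 with TNF-α. Its log2 ratio of -0.69 (95% interval -0.76 to -0.62) stayed within 2-fold. The intervals of the 2 genes did not overlap, so the ratio of Stat5a lay below that of Stat5b by more than the counting error. Both genes are neighbours, 8.63 kb apart, and 608 of the 50-base words in their transcripts occur in both, out of 7407 for Stat5a and 5535 for Stat5b. How reads from these words were shared between them was not given in the sources used here.

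The receptors that feed STAT5 were described from a list of 11, of which 8 reached 10 counts. Prlr, the prolactin receptor gene, was called lower, with 5767 counts in the control and 3119 with TNF-α (log2 ratio -1.15). Ghr, the growth hormone receptor gene, was also called lower, with 3408 and 1643 counts (log2 ratio -1.31). The other 6 were not called. Only 3 genes of the list had at least 200 counts, and Csf2ra, part of the GM-CSF receptor, was the highest of these at -0.53. Above 0 lay Il3ra (18 and 43 counts, log2 ratio 0.93) and Epor (10 and 22 counts, 0.77), and the list median was -0.44. Prlr is also one of the 15 luminal markers, of which 4 were called lower (Prlr, Esr1, Pgr and Areg) and none higher, with a list median of -0.63 and summed levels of 4800 CPM in the control and 3848 CPM with TNF-α. By flow cytometry, the paper reports a larger proportion of basal cells in cultures with TNF-α than without. In bulk RNA, fewer cells of a type and less RNA per cell cannot be told apart. The part of luminal cell number in the ratios of Stat5a, Prlr and the other genes described here was not tested.

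STAT5 target genes, a list of 18 with Cish among them and 14 tested, had 3 called higher and 1 lower, and their median log2 ratio was 0.14. The casein genes Csn1s1 (126 and 618 counts, log2 ratio 2.02) and Csn3 (1039 and 4592 counts, log2 ratio 1.88) were called higher with TNF-α, as was Tnfsf11, the RANKL gene, from only 2 and 16 counts. Lalba, which encodes α-lactalbumin, was called lower with 96 and 28 counts. Csn2 and Csn1s2a had 0 counts in both libraries and Wap had 0 and 1. Elf5, a luminal regulator of milk genes, was the lowest among list genes with at least 200 counts (2721 and 2105 counts, log2 ratio -0.63). The targets therefore did not share 1 direction while Stat5a and Stat5b were both lower.

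Cish encodes CIS, an SH2 protein that inhibits STAT5 signalling and is itself a STAT5 target. It lies on chromosome 9 (107296026 to 107302784, plus strand) and had 100 counts in the control and 195 with TNF-α. The log2 ratio was 0.69 (95% interval 0.35 to 1.07), so Cish stood higher with TNF-α beyond counting error but was not called. Its direction was opposite to that of Stat5a and Stat5b. Exons of Gm17041 and Gm17040 on the other strand cover 7.46% and 4.07% of its exon bases. They had 36 and 73 counts, and 24 and 33 counts, in the control and TNF-α libraries, and without a stated strand setting their reads cannot be told apart from those of Cish where the genes overlap. Socs2, a further STAT5 feedback gene, had a log2 ratio of 0.10 (607 and 781 counts).

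Stat3, which transmits the IL-6 family signal, lies on chromosome 11 (100885098 to 100939540, minus strand) and overlaps the end of Stat5a by 72 bases. It had 13950 counts in the control and 24469 with TNF-α, the most of the 9 genes. The log2 ratio was 0.55 (95% interval 0.52 to 0.58), or 1.46-fold, which is under the 2-fold threshold and above that of 83.8% of all genes. Stat3 and Stat5a, at the same locus, had ratios of opposite sign, and the shared 72 bases are 0.756% of the exon bases of Stat3 and 1.01% of those of Stat5a.

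Socs3 encodes the inhibitor that binds the IL-6 family receptor subunit gp130 and is a direct target of STAT3. It lies on chromosome 11 (117966079 to 117970047, minus strand), carried the STAT motif shown above, and had 3956 counts in the control and 2992 with TNF-α. The log2 ratio was -0.66 (95% interval -0.73 to -0.59), a 1.58-fold lower value that was not called. Stat3 and its inhibitor thus had ratios of opposite sign, and in levels per kb Stat3 was 1.07 times Socs3 in the control and 2.48 times with TNF-α.

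Among the IL-6 family receptors, a list of 10 with 8 tested, 1 was called higher and 1 lower. Cntfr, the ciliary neurotrophic factor receptor gene, was called higher with 787 and 2524 counts (log2 ratio 1.42). Il6ra, the IL-6 receptor gene, was called lower with 447 and 144 counts (log2 ratio -1.88). Il6st, which encodes the shared subunit gp130, had 9216 and 16914 counts and a log2 ratio of 0.62. Of the 9 ligands, 5 were tested and none called, with Lif at 496 and 921 counts (0.63) as the highest and Clcf1 at -0.40 as the lowest among those with at least 200 counts. Il6 had 4 counts in the control and 3 with TNF-α, and Osm had 0 in both.

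Of 30 STAT3 target genes, 8 were called higher and 1 lower, and the median log2 ratio was 0.35. The highest was the acute phase gene Lbp at 6.74, from 6 counts in the control and 1000 with TNF-α. Haptoglobin, encoded by Hp, was at 4.24 with 1340 and 30413 counts, and Bcl3, an IκB family gene, was at 1.70 with 53 and 211 counts. The lowest was Fos, an immediate early gene, called lower with 11006 and 4702 counts (-1.49). Many of these genes are also known targets of NF-κB, and the list does not separate the 2 factors. Socs3 was the only member in this list and stood below its median.

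Stat2 encodes a subunit of ISGF3, a complex with IRF9 that switches on genes of the type I interferon response. It lies on chromosome 10 (128270576 to 128292849, plus strand). It had 617 counts in the control and 1338 with TNF-α, a log2 ratio of 0.85 (95% interval 0.72 to 0.997), just within 2-fold. With counts divided by 2, the interval of Stat2 ran from 0.66 to 1.06 and reached past 2-fold. Of all genes, 10.3% had a higher ratio. Irf9 had 1586 and 2636 counts (log2 ratio 0.47). Both genes thus had more scaled counts with TNF-α, and neither was called.

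Of 20 interferon-stimulated genes, which ISGF3 and related STAT dimers are known to activate, 16 were called higher and none lower, with a median log2 ratio of 2.24. The highest was the chemokine gene Cxcl9 at 4.34 (8 and 236 counts) and the lowest was Ifit2 at 0.45 (459 and 753 counts). Usp18, an inhibitor of type I interferon signalling, was at 2.13 with 70 and 374 counts. Among the 10 receptors of interferons and the IL-10 family, 9 were tested and 1 was called higher, Il20ra, with 0 counts in the control and 16 with TNF-α. Ifngr1, a chain of the interferon-γ receptor, was the highest with at least 200 counts, at 0.96 (1434 and 3335 counts), and Il20rb the lowest at -0.16. Ifng itself had 0 counts in both libraries.

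Socs1 encodes the main inhibitor of the interferon receptors and of the JAKs. It lies on chromosome 16 (10783808 to 10785536, minus strand), directly after the promoter with 2 interferon cores shown above. Socs1 had 14 counts in the control and 13 with TNF-α, a log2 ratio of -0.32 with a 95% interval from -1.57 to 0.83. A 2-fold lower value lies within that interval and a 2-fold higher value lies outside it. With counts divided by 2, an alternative described below, the interval ran from -2.33 to 1.32 and held both. No difference was detected from these few counts. The low count of Socs1 stood beside 16 of 20 interferon-stimulated genes called higher.

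Stat4 carries the IL-12 signal in T and NK cells. It lies on chromosome 1 (51987148 to 52107189, plus strand). Stat4 had 30 counts in the control and 104 with TNF-α, a log2 ratio of 1.48 (95% interval 0.94 to 2.17), and was called higher. Its level per kb was 0.174 and 0.503, the lowest of the 9 genes in the control although its interval overlapped that of Socs1. The count has a limit in the annotation. Gm28177, on the same strand, shares 1033 exon bases with Stat4, which is 26.7% of the exon bases of Stat4. It had more counts than Stat4 in both libraries, and its own count was higher with TNF-α. The part of reads from this transcript in the count of Stat4 was not tested. Of the T and NK cell markers, Ptprc had 26 and 38 counts, Lck 42 and 103 (called higher) and Cd247 501 and 679. The 15 markers summed to 13.0 CPM in the control and 15.6 CPM with TNF-α, of which Cd247 alone made up 11.2 and 12.7 CPM.

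The receptors linked to STAT4, 5 genes including those of IL-18, had 2 called higher and none lower. Il18r1, a chain of the IL-18 receptor, was called higher with 246 and 2986 counts (log2 ratio 3.33), and Il18rap, its accessory chain, with 42 and 214 (2.04). IL-18 signals mainly through MyD88 and not through STATs. The IL-12 receptor genes were not called, with Il12rb2 at 182 and 131 counts (-0.72) and Il12rb1 at 4 and 8 counts.

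Stat6, the STAT of IL-4 and IL-13, lies on chromosome 10 (127642986 to 127660957, plus strand). It had 7960 counts in the control and 8882 with TNF-α, a log2 ratio of -0.10 (95% interval -0.15 to -0.06). It was the nearest of the 9 genes to no change, and 39.5% of all genes had a lower ratio. Of the 5 IL-4 and IL-13 receptor genes, 4 were tested and 1 was called higher, Il2rg, the common γ chain, with 22 and 96 counts. Il4ra, the IL-4 receptor gene, had 12466 and 10422 counts (-0.52), and Il13ra1 had 1422 and 2326 (0.45). Of 23 STAT6 targets, 2 of them members, 16 were tested, with 3 called higher and 2 lower and a median of -0.19. Clca3a1 was the highest with at least 200 counts, at 1.56, and Gata3, a luminal transcription factor gene, the lowest at -0.77. Called higher beside Clca3a1 were Arg1, the arginase gene, with 4710 and 14910 counts, and Ccl11, with 2 and 164. Pparg was called lower with 102 and 22 counts, and Alox15 with 138 and 38.

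The genes of the JAK kinases, which act at the receptors that signal through STATs, were not called. Jak2 had 2858 counts in the control and 5500 with TNF-α (log2 ratio 0.68), Jak1 7331 and 9557 (0.12), Jak3 183 and 264 (0.27), and Tyk2 881 and 1003 (-0.07). The Socs genes outside the 9 were not called either. Socs4, Socs5, Socs6 and Socs7 lay at -0.06, -0.13, 0.08 and -0.12. By point values Socs3 had the lowest log2 ratio of the 8 SOCS family genes measured and Cish the highest, while the interval of Socs1 reached beyond both. Of 15 further inhibitors, 1 was called higher, Usp18, and none lower. Ptpn2, a nuclear phosphatase of STAT proteins, had 2690 and 5041 counts (0.65), and Sh2b3 was the lowest at -0.35.

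**Figure D4:**
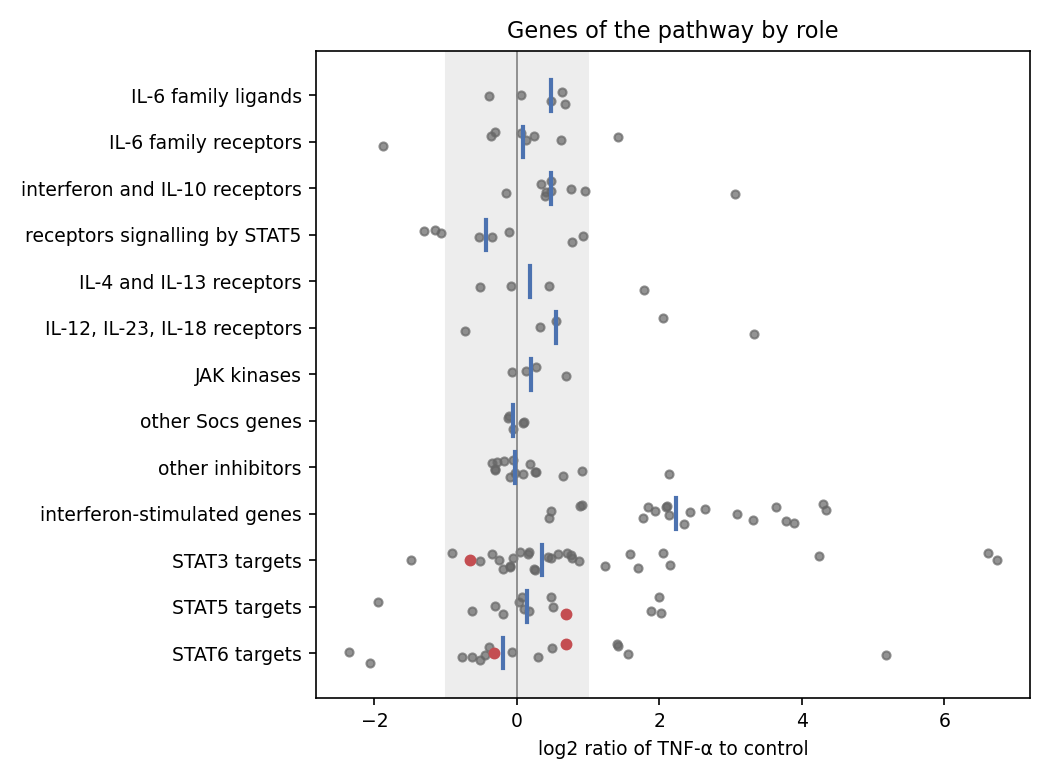
Log2 ratio, TNF-α over control, for the tested genes of 13 pathway lists, ordered from ligands and receptors to targets, with the list median as a blue bar, members in red and the 2-fold band in grey. The median of the interferon-stimulated genes lies at 2.24 and that of the STAT5 receptors at -0.44, and some genes are in more than 1 list.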

How the data were processed

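RNA-seq was performed on 1 control and 1 TNF-α culture of mouse mammary basal cells. The authors deposited raw counts of reads per gene with exon coordinates, per the file headers, and the labels name GRCm38 (mm10). The aligner, counting tool, annotation and strand setting are not given in the sources used here. The title calls the series a microarray, while its type and values are sequencing. Of 47240 gene names shared with GENCODE M21, 90.8% had the same coordinates.

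Counts were scaled with edgeR 4.0.16 (TMM, R 4.3.3), and the TNF-α library came to 1.20 times the control. Log2 ratios used a prior count of 2. The quasi-likelihood test of edgeR needs replicates and could not be fitted. Genes with 10 counts summed were called past 2-fold with an exact binomial read test at an adjusted p of 0.05. A count of 10 is worth 0.224 CPM in the control and 0.187 with TNF-α. Intervals (95%, Clopper-Pearson for ratios, Poisson for levels) cover counting error only and not the spread between cultures. They take each read as independent, which PCR reads are not, so they can be too narrow. Among rarely counted control genes, 2172 had 2 counts and 618 had 1, as when both ends of a pair are counted, so halved counts were an alternative, beside other scalings (DESeq2 1.42.0), filters, folds and assumed spreads.

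The members, gene lists and tests were chosen with earlier results of these data known. Some genes are not reported here. All members, JAKs and Socs genes are named, and, of other lists outside the cell type markers, the highest and lowest gene with at least 200 counts. Genes outside this rule, such as Hp, Bcl3, Gm28177 and Ptpn2, were picked after their values were seen. The other software was scipy 1.17.1, numpy 2.4.6, statsmodels 0.14.6, pandas 2.3.3 and matplotlib 3.10.9 under Python 3.11.15. Protein sequences were not used here.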

Additional observations from a re-analysis of the deposited data

How the results depend on the processing

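No paired analysis was possible because no group had more than 1 library, and leaving out a replicate was likewise not possible. All 9 log2 ratios kept their sign under 7 alternatives. These were total counts, DESeq2 size factors, upper quartile, prior counts of 0.5 and 5, halved counts and a GC and length correction. The scalings put the TNF-α library at 1.197 to 1.205 times the control, while the smallest ratio in size, that of Stat6, was -0.10. Prior counts and halving keep the direction of a ratio, apart from rounding. Only the GC and length correction, chosen after the data were seen, was therefore free to change a sign. That correction moved Stat3 to 0.62, Stat5a to -1.002, Stat6 to -0.052 and Socs3 to -0.56, outside their intervals for counting error, and the median of the members to -0.052. The cause was not tested. Without Socs1, also chosen afterwards, that median was 0.22, as 8 genes remain.

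Stat4 was called higher in 12 of 13 settings, and Stat5a lower in 11. When a coefficient of variation of 0.2 was assumed in the exact test of edgeR, 0 members were called lower, with 745 genes higher and 523 lower. At 0.4, 0 members were called in either direction, with 91 genes higher and 54 lower. A 1.5-fold threshold called 3 members higher and 3 lower, with 2337 and 1987 genes. At 1 CPM in a library 836 and 659 genes were called. Halved counts gave 1010 genes higher and 781 lower, where the main setting gave 1431 and 1148. The CPM filter and the halved counts tested fewer genes, so these numbers are not shares of the 20771. With the halved counts the intervals of 8 members still excluded 0.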
